A study of Mus musculus with 16 samples.

Results

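Lhx1-null and wild-type definitive endoderm (DE) cultures were compared at day 6 of differentiation, 4 cultures of each genotype, on Illumina Mouse WG-6 v2 BeadChips. The comparison holds the 14321 of 45281 probes whose detection p was under 0.01 on at least 4 of these 8 arrays, and the day 5 arrays, which make up the rest of the 16 in the series, were not used. The wild-type group is labelled Lhx1+/+ and the null group Lhx1∆/∆ (Lhx1-/- in the table of intensities). By the paper's account the RNA came from 4 independent Lhx1-null lines and from wild-type control lines of mouse embryonic stem (ES) cells. These lines were derived from blastocysts of an Lhx1∆/+ intercross. Both groups were grown in suspension at low density without LIF, with Activin A and EGF added later, so the only stated difference is the Lhx1 genotype. The conditional allele from which the null was made flanks the second and the third exon with LoxP sites. Such cultures are mixtures of cells, and in RNA from a whole culture fewer cells of a type and less RNA per cell cannot be told apart.

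Lhx1 encodes a LIM-domain homeodomain transcription factor of the visceral endoderm, the anterior primitive streak derivatives and the node of the mouse gastrula. Anterior DE and the prechordal plate, the tissues under the future forebrain, secrete inhibitors of Wnt, Nodal and BMP signals that protect anterior identity, and the node and notochord pattern the midline through Shh. High Activin, which acts through the same receptors as Nodal, drives ES cells toward these fates, while BMP and Wnt signals favor lateral and posterior mesoderm. The comparison asks which transcripts of such cultures differ when Lhx1 is missing.

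Of the 14321 probes, 182 (1.27%) differed between genotypes in limma's test at a Benjamini-Hochberg adjusted p under 0.05, 105 of them lower in the nulls (0.733%) and 77 higher (0.538%). Taking the probe with the highest mean for each symbol gave 8351 genes, of which 121 (1.45%) were called, 75 lower (0.898%) and 46 higher (0.551%). Among these called genes 33 had 2 or more kept probes, and 16 of the 33 had another probe that was not called. All values below are background-corrected, quantile-normalized log2 intensities, and a difference is the null mean minus the wild-type mean. Every called probe had groups that did not overlap, but so did many others. In all, 749 probes (5.23%) had all 4 nulls under the lowest wild-type value and 493 (3.44%) had all above the highest, and 2071 (14.5%) had an unadjusted p under 0.05. Of the 182 called probes 168 differed by more than 1 on the log2 scale and 75 by more than 2, and the smallest differed by 0.65.

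**Figure D1:**
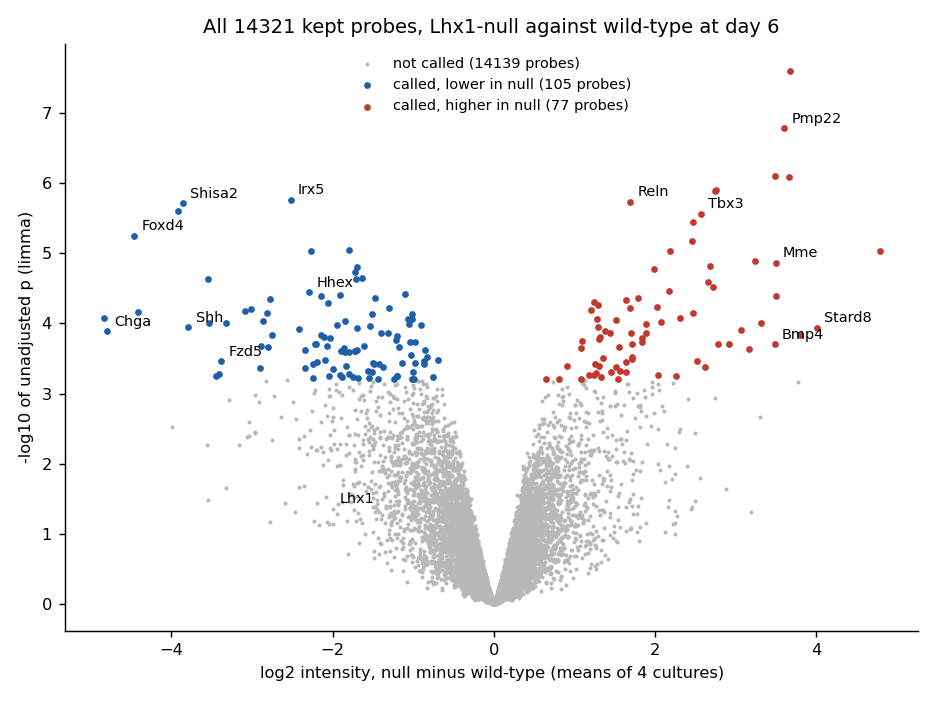
Each point is 1 of 14321 probes, with the log2 difference between the means of 4 null and 4 wild-type cultures on the x axis and minus log10 of limma's unadjusted p on the y axis. The 105 called lower (blue) and 77 called higher (red) stand apart at the top, and labels mark 14 genes described in the text, with Lhx1 among the grey points that were not called.

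The threshold of the filter cut through a continuous range, with 742 probes detected on exactly 4 of 8 arrays and kept, and 739 detected on exactly 3 and left out. Some probes entered only through the genotype in which they were bright. Of 33 probes detected in all wild-type and no null cultures 21 were called lower, and of 31 with the opposite pattern 22 were called higher. For these the null-minus-wild-type difference depends on the background model, so a lower bound of the fold is given for them, beside any difference, as the mean of the bright group over the background level of the arrays. Where only some cultures of the dim group were above background, the difference depends on that model too, but no bound is given. Such genes include Fzd8, Tph1, Tm6sf1 and Col2a1, above background in 1 null culture each, and Samd3 and Cadps2, in 2. Cygb and Apcdd1 were above background in 1 and 2 wild-type cultures.

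Lhx1 itself was still read in every null culture. Probe ILMN_1225672 gave 14.99, 14.42, 14.66 and 14.88 in wild-type replicates 1 to 4 and 14.08, 9.84, 13.15 and 13.89 in null replicates 1 to 4. Null replicate 2 was thus far lower than the other nulls, and all 4 nulls lay below all wild-type cultures. The difference was -2.0 (SE 0.84), with p = 0.0286 in an exact two-sided permutation test, the smallest that 70 splits of 4 against 4 allow, and it did not pass limma's test over all probes (adjusted p = 0.326). Without null replicate 2 it was -1.03. The second probe, ILMN_2716543, had a difference of -2.20 and the same exact permutation p. The files do not place either probe relative to the deleted exons, so these values do not check the genotype labels.

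The cultures were not equally alike. From 11979 to 14928 probes were detected in wild-type and from 12194 to 15453 in null cultures. Principal component 1, with 36% of the variance, placed wild-type replicates 1, 3 and 4 at -47.8 to -22.8 and null replicates 1 to 3 at 12.6 to 51.8, whereas wild-type replicate 2 (2.08) and null replicate 4 (1.48) lay beside each other. Wild-type replicate 2 was the lowest of its group for 74 of the 105 called falls. Null replicates 3 and 4 are numbered by their titles, while their descriptions both call them replicate 2. They were not copies of each other, with a Pearson correlation of 0.9151 across probes against 0.8981 to 0.9642 for the other pairs of nulls. This does not tell whether they came from the same line. Eif2s3y, the Y-linked gene of a translation initiation factor and the only sex-linked gene of the list that was kept, read 10.11, 8.24, 8.03 and 10.04 in wild-type cultures, 9.02 and 8.68 in null replicates 1 and 2, and was not above background in null replicates 3 and 4 (5.26 and 5.48).

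How far a call rested on single cultures was read from fits that left out 1 array. Of 44 named genes that were called, 8 passed in all 8 such fits, namely Foxd4, Shisa2, Pmp22, Mme, Aldh1a3, Alpk3, Tbx3 and Cdh11. The others lost the call in 1 or more, 35 of the 44 without wild-type replicate 4, 33 without wild-type replicate 1, 29 without null replicate 3, 26 without wild-type replicate 3, 26 without null replicate 1, 19 without null replicate 4, 6 without null replicate 2 and 1 without wild-type replicate 2. None of the 44 changed sign in any fit. Below, the highest adjusted p of these 8 fits is given with the array left out. Without wild-type replicate 2, by contrast, 451 probes were called, and without null replicate 2 there were 217. Leaving out null replicates 3 and 4 together left 21 called probes, among the named genes Shisa2, Col2a1, Pmp22 and Mme. With the intensity of Eif2s3y as a covariate 12 probes were called, among the named genes Shisa2, Pmp22 and Alpk3.

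Markers were those of DE-directed cultures that also held other cells. Of 7 DE markers Foxa2, Sox17, Cxcr4, Gata6, Cer1 and Hhex were detected, whereas the Epcam probe was below background on all arrays. Their summed linear intensity ranged from 22300 to 37700 over wild-type cultures and from 8920 to 17300 over nulls, without overlap and lowest in null replicate 2. Pou5f1, Nanog and Sox2 of undifferentiated ES cells were detected on all 8 arrays, and with Zfp42 and Esrrb summed to 3260 to 13300 in the wild-type group and 5210 to 21500 in the null group, which overlap. None of the neural markers Sox1, Pax6 and Tubb3 was detected. Of 7 visceral and parietal endoderm markers 5 were detected, without Afp and Thbd, and their sums of 1270 to 9770 and 2590 to 7240 overlapped. Mesoderm markers, of which 5 of 6 were on the array, summed to 357 to 944 in the wild-type group and 1270 to 2740 in the null group, without overlap. Taken singly, Mesp1, Tbx6 and Kdr overlapped between genotypes. Foxf1 and Hand1 were higher in every null, but Hand1 was above background in 1 null culture only. Krt7, the single trophoblast marker detected, was lower in all nulls. Embryonic globins were bright in null replicate 2 alone, where the 3 blood markers summed to 58300 against at most 1320 in any wild-type culture. The part of these cells in the results below was not tested.

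The largest falls included several genes of anterior DE, the prechordal plate and the node. Chga, which encodes chromogranin A of secretory granules, read 11.36, 7.72, 11.22 and 10.54 in wild-type replicates 1 to 4 and 5.34, 5.73, 5.37 and 5.19 in the nulls, where no array had it above background. It was at least 7.75-fold lower (difference -4.80, SE 0.73, adjusted p = 0.0238), and its 3 kept probes were all called. Foxd4, a forkhead gene of the anterior midline, read 9.0, 10.17, 10.09 and 11.34 in wild-type and 5.46, 5.79, 5.31 and 6.20 in null cultures. With no null culture above background, Foxd4 was at least 7.43-fold lower (difference -4.46, SE 0.45, adjusted p = 0.00625). Samd3, named for its sterile alpha motif, read 12.12, 12.09, 11.46 and 11.88 against 8.43, 5.75, 6.92 and 8.79, so the wild-type cultures were close together and the nulls spread (difference -4.42, SE 0.61, adjusted p = 0.02). Without wild-type replicate 4 the adjusted p was 0.1 for Chga and 0.0807 for Samd3, while that of Foxd4 reached 0.0289 without null replicate 1.

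Shisa2 encodes a membrane protein that holds back Frizzled and FGF receptors. It read 12.86, 11.70, 12.44 and 12.91 in wild-type replicates 1 to 4 and 8.96, 7.89, 9.02 and 8.62 in null replicates 1 to 4, with every null culture far below every wild-type culture. Its difference of -3.85 (SE 0.34, adjusted p = 0.00307) corresponds to a 14.4-fold lower intensity. Shh, the Hedgehog ligand of the node, notochord and prechordal plate, read 8.32, 10.66, 9.83 and 10.20 in wild-type cultures and was not above background in any null (5.32, 6.08, 5.34 and 7.12), at least 5.65-fold lower (difference -3.79, SE 0.56, adjusted p = 0.0225). Wild-type replicate 1 was the lowest wild-type culture for both Foxd4 and Shh, although it was the highest for 58 of the 105 falling probes. Without wild-type replicate 4 the adjusted p of Shh was 0.0929.

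The other 7 of the 12 largest falls ranged from -3.55 to -3.01. Nptx2, a neuronal pentraxin, read 12.31, 10.43, 11.72 and 11.77 in wild-type and 8.52, 7.70, 7.35 and 8.48 in null cultures (difference -3.55, SE 0.43, adjusted p = 0.0124). Tph1, tryptophan hydroxylase of serotonin synthesis, read 11.04, 9.12, 10.93 and 10.78 against 7.69, 5.82, 7.2 and 7.04 (difference -3.53, SE 0.52, adjusted p = 0.0217). Both had replicate 2 low within the wild-type group and no overlap between groups. The fall of Myl3, a myosin light chain of heart and slow muscle, was -3.44 (SE 0.64, adjusted p = 0.0488), with null replicate 2 the highest null at 9.45 and wild-type replicate 2 the lowest wild-type at 10.28. Fzd5, a Wnt receptor, had a difference of -3.38 (SE 0.59, adjusted p = 0.0383), and Tm6sf1, a transmembrane protein, one of -3.33 (SE 0.49, adjusted p = 0.0217). Col2a1, the collagen of notochord and cartilage, fell by 3.09 with all of its 3 probes called (adjusted p = 0.02), and Cadps2, which primes dense-core vesicles for exocytosis, fell by 3.01 (SE 0.41, adjusted p = 0.0197). The highest adjusted p of these 7 with 1 array left out ran from 0.062 for Nptx2 without wild-type replicate 4 to 0.151 for Myl3 without wild-type replicate 1.

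The 12 largest rises ran from 4.01 for Stard8 to 2.66 for Msx1. Stard8, which encodes a START domain protein, read 7.31, 8.91, 9.49 and 6.91 in wild-type replicates 1 to 4 and 11.80, 13.10, 12.07 and 11.67 in null replicates 1 to 4 (difference 4.01, SE 0.60, adjusted p = 0.0225). Pmp22, a tetraspan membrane protein of peripheral myelin, read 9.39, 9.17, 10.12 and 9.17 against 12.91, 13.23, 12.87 and 13.26. The nulls lay close together, and the rise of 3.60 (SE 0.23) had an adjusted p of 0.0012. Leaving out wild-type replicate 1 raised that of Stard8 to 0.0843. Both probes of Pmp22 and both of Stard8 were called.

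Bmp4, the ligand that induces ventral and extraembryonic mesoderm, read 8.09, 10.23, 10.26 and 7.93 in wild-type cultures and 12.81, 12.31, 12.55 and 12.78 in the nulls (difference 3.49, SE 0.56, adjusted p = 0.0277). Wild-type replicates 2 and 3 were well above replicates 1 and 4, and all nulls were above both pairs. Mme, the membrane metallopeptidase neprilysin, lay between 5.34 and 5.92 in wild-type cultures, never above background, and read 9.45, 9.35, 9.91 and 7.91 in the nulls, at least 3.67-fold higher (adjusted p = 0.00975). Aldh1a3, a retinaldehyde dehydrogenase that makes retinoic acid, was likewise not above background in wild-type (6.06 to 6.71) and read 9.91, 8.52, 10.12 and 10.13 in null cultures, at least 5.24-fold higher (adjusted p = 0.0096). Foxf1, a forkhead gene of lateral plate and splanchnic mesoderm, was at background in all wild-type cultures (5.63 to 5.71) and read 8.32, 10.24, 9.35 and 7.46 in the nulls, at least 2.95-fold higher (adjusted p = 0.0294). Null replicate 2, with its globins, was the highest culture for Foxf1 and the lowest null for Aldh1a3. Without wild-type replicate 4 the adjusted p was 0.0871 for Bmp4 and 0.114 for Foxf1, whose call also ended without background correction and with the authors' rank invariant values.

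Apcdd1, which encodes a Wnt inhibitor that is itself induced by Wnt signals, rose by 3.50 (SE 0.45, adjusted p = 0.0166), and Cd44, the hyaluronan receptor, by 3.31 (SE 0.48, adjusted p = 0.0217), each with both probes called. Of these Cd44 reached 0.0871 without wild-type replicate 4 and Apcdd1 0.0688 without wild-type replicate 1. The remaining rises among the 12 were those of Cygb, a globin-fold protein of fibroblasts (3.06, SE 0.46), Lmo2, a LIM-only adaptor of blood progenitors (2.79, SE 0.45), Alpk3, a kinase-domain protein of heart muscle (2.69, SE 0.31), and Msx1, a homeobox target of BMP (2.66, SE 0.32). Lmo2 was highest in null replicate 2 at 12.22, against 10.54 to 11.21 in the other nulls and 7.66 to 9.08 in wild-type cultures, and its adjusted p was 0.113 without wild-type replicate 4.

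**Figure D2:**
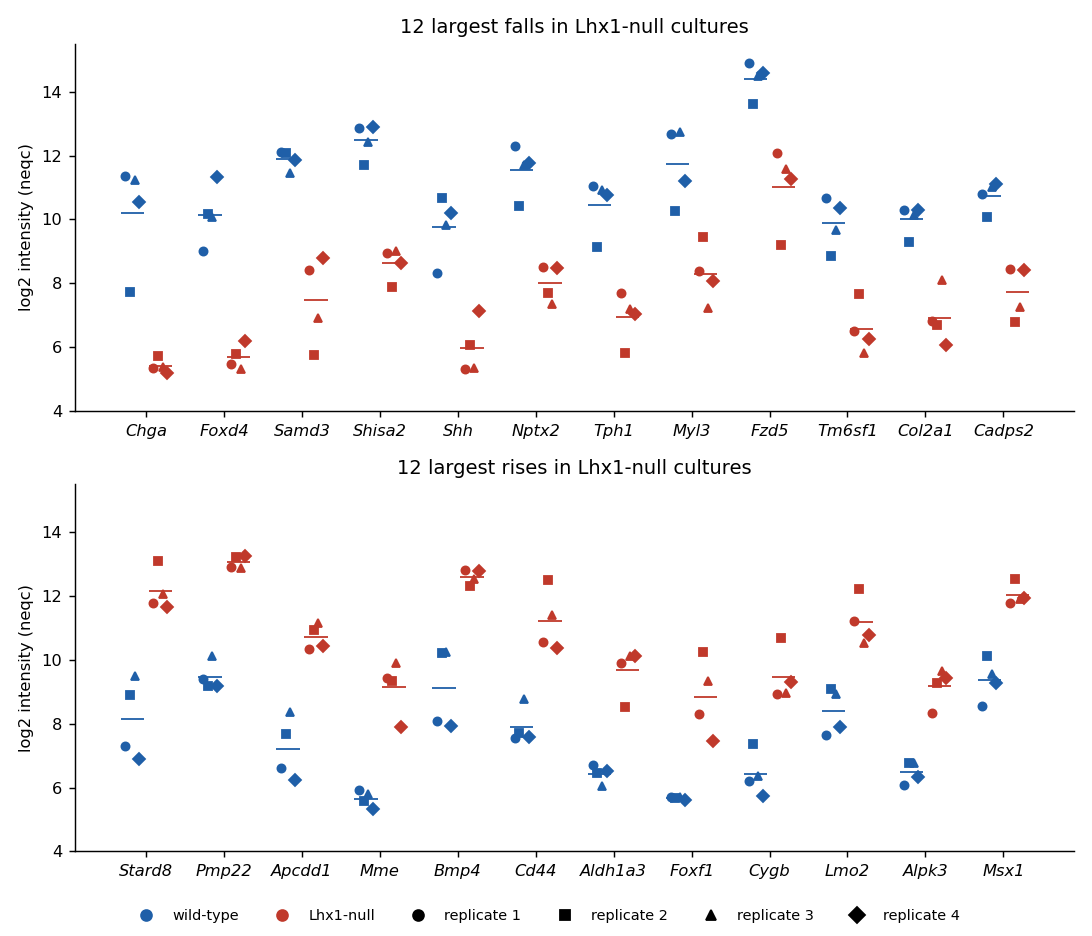
Log2 intensity of the 12 genes with the largest falls (top) and the 12 with the largest rises (bottom) in each culture, wild-type in blue and Lhx1-null in red, with marker shape giving the replicate and a line at the group mean. The groups do not overlap for any of the 24 genes, which the choice of genes required, and wild-type replicate 2 (blue squares) lies low in its group for most of the falls.

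Homeodomain factors with a LIM domain bind sites with a TAAT core, and the motif TAATTA, which reads the same on both strands, was searched in the promoter windows of RefSeq (build GRCm38.p6), from 250 bases before to 50 after each annotated start. Windows were matched by symbol for 6844 of the 8351 genes. The motif lay in a window of 2 of 63 genes called lower (3.17%), 1 of 31 called higher (3.23%) and 205 of all 6844 (3.00%). With so few called genes holding it, these shares can show neither a difference nor its absence. The paper found its Lhx1 peaks enriched far from gene starts, outside such windows, so the search does not bear on distal sites. The 3 sites are shown because they are all that the called genes have, 5′ to 3′ on the strand of the gene with the motif in capitals. They lie upstream of Tph1, of Clip4, a CAP-Gly domain protein whose transcript fell by 2.03, and of Tiam1, a Rac exchange factor that rose by 1.25.
Tph1, chr7:46667594-46667623, minus strand: tcaacattaactTAATTAaaactctacgag
Clip4, chr17:71769583-71769612, plus strand: aattcagggtccTAATTAgtgcctggccct
Tiam1, chr16:89818553-89818582, minus strand: tatcagttttcgTAATTAagcatctgtaaa

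Anterior endoderm and prechordal plate genes were lower in the nulls as a group. All 13 measured members had a negative difference, 5 were called lower and none higher, and the median was -2.89, beside a median of -0.003 over all 8351 genes, of which 0.898% were called lower. The called members were Foxd4, Shisa2, Fzd5, Trh and Hhex. Most of the 13, and every called member but Foxd4, are genes that the study itself named from these cultures. Their shared direction is thus not independent evidence. Hhex, a homeobox gene of anterior DE and liver, read 13.33, 12.02, 13.06 and 13.19 in wild-type and 10.82, 10.43, 10.38 and 10.82 in null cultures (difference -2.29, SE 0.29, adjusted p = 0.0166). Trh, thyrotropin-releasing hormone, read 15.05, 14.86, 14.14 and 14.94 against 11.25, 12.41, 13.15 and 10.60 (difference -2.89, SE 0.52, adjusted p = 0.0424). The nulls were tight for Hhex and spread for Trh. Their adjusted p were 0.0729 without wild-type replicate 4 and 0.145 without wild-type replicate 1, respectively.

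The other 8 members of that list did not pass. The Nodal and Wnt inhibitor Cer1 read 12.41, 10.88, 11.77 and 12.36 in wild-type and 10.77, 5.81, 7.39 and 9.24 in null cultures (difference -3.55, SE 0.96, adjusted p = 0.129). Lefty1, a Nodal inhibitor, read 15.19, 14.58, 14.91 and 14.56 against 12.78, 8.68, 12.50 and 12.65 (difference -3.16, SE 0.85, adjusted p = 0.129), and Otx2, a homeobox gene of anterior tissues, 14.20, 13.28, 13.59 and 14.05 against 12.71, 8.62, 11.85 and 12.52 (difference -2.35, SE 0.83, adjusted p = 0.237). Without null replicate 2 Lefty1 passed (difference -2.16, adjusted p = 0.00465), and with median scaling both Cer1 and Lefty1 did (0.0251 and 0.0208), whereas Otx2 passed in no setting. All 3 had nonoverlapping groups, and null replicate 2 was the lowest null for 10 of the 13 genes of the list. Gsc, the homeobox gene of the organizer, overlapped, at 13.40 to 14.29 in wild-type, 13.02 to 13.62 in 3 nulls and 8.72 in null replicate 2.

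General DE transcription factors moved less. Of 9 measured, none was called and 7 had a negative difference (median -0.99). Foxa2, a forkhead factor of DE and midline, read 10.21, 10.56, 10.07 and 10.58 in wild-type and 9.36, 6.51, 8.37 and 9.05 in null cultures (difference -2.03, SE 0.56, adjusted p = 0.136). For Sox17 the values were 12.53, 12.29, 11.89 and 12.66 against 11.30, 9.42, 10.71 and 11.44 (difference -1.63, SE 0.43, adjusted p = 0.12). Gata6 was 12.90 to 13.44 and 12.54 to 12.93, with groups that overlapped. Null replicate 2 was the lowest null for all 9.

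Among 15 genes of the node, notochord and midline, 5 were called lower, beside 0.898% of all genes, and none higher (median -0.95). Besides Shh and Col2a1 they were Cyb561, a cytochrome of secretory vesicles (difference -2.22, SE 0.36, adjusted p = 0.0277), Sema6d, a transmembrane semaphorin (-2.04, SE 0.38, adjusted p = 0.0488), and Pkdcc, a secreted protein kinase (-1.85, SE 0.27, adjusted p = 0.0217). Without wild-type replicate 4 the 3 adjusted p were 0.113, 0.156 and 0.0871. Pkdcc read 12.47, 11.99, 12.04 and 12.42 in wild-type and 10.67, 9.63, 10.40 and 10.81 in null cultures. By contrast the cilia genes Foxj1 (-0.26) and Dnah11 (-0.11) and the cartilage and endoderm factor Sox9 (0.43) did not pass. Of 8 Hedgehog pathway genes Shh alone was called, and its target Ptch1 had a difference of -1.25 without passing. The 31 measured genes that the study itself named from these cultures gave 12 lower and 1 higher call. All 5 called genes of the node list are among them. Many of these 31 genes were named as changed on the same samples, so their calls are not independent evidence of direction. Others, such as Dkk1, Frzb, Wnt3 and Ctnnb1, the paper describes as unaffected. It describes Epb41l5 as markedly down-regulated and counts Kdm5b among candidate targets. Neither gene was called here. The kept probes of Epb41l5 had differences of 0.04, 0.04 and 0.05, with adjusted p of 0.952 to 0.96. For Kdm5b the brightest probe was at -0.09, and the others, at -1.07 and -0.75, did not pass.

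Of 8 measured genes of neuroendocrine cells and secretory granules 3 were called lower, Chga, Cadps2 and Trh, beside 0.898% of all genes, and none higher (median -1.57). Cpe, a carboxypeptidase that trims prohormones, had a difference of -2.15 and the calcium sensor relative Cadps one of -1.0, and neither passed, whereas Stx1a, a syntaxin, was at 0.27.

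Of 17 Wnt receptors and transducers 2 were called lower, beside 0.898% of all genes, and none higher. Both were Frizzled receptors. Fzd5 read 14.91, 13.63, 14.49 and 14.59 in wild-type replicates 1 to 4 and 12.07, 9.19, 11.57 and 11.26 in the nulls. Fzd8 read 9.09, 8.88, 9.65 and 10.26 against 7.71, 5.63, 6.21 and 6.78 (difference -2.88, SE 0.47, adjusted p = 0.0286). With 1 array left out they reached 0.134 (Fzd5, without wild-type replicate 1) and 0.1 (Fzd8, without wild-type replicate 4). The other Frizzled receptors lay between -0.60 (Fzd6) and 1.17 (Fzd10), and the coreceptors Lrp5 and Lrp6 at 0.11 and -0.24, none called. Tcf7l2, a DNA-binding effector, did not pass as fitted (-1.44, SE 0.31, adjusted p = 0.0724) but was called in 6 of 12 other settings and without wild-type replicate 2 (adjusted p = 0.022).

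Of 12 Wnt antagonists and feedback targets Shisa2 was called lower and Apcdd1 higher, beside 0.898% of all genes called lower and 0.551% called higher. The secreted inhibitors Sfrp5 (-2.96, adjusted p = 0.112) and Sfrp1 (-2.73, adjusted p = 0.0609) had negative differences that did not pass, although Sfrp1 was called in 6 of 12 other settings and without null replicate 2 (adjusted p = 0.0167). Dkk1 and Frzb had smaller differences (-0.72 and -0.71). The feedback targets Nkd1 and Axin2 were at 2.04 and 1.90, neither called. Among 10 ligands and secretion genes 9 had a positive difference (median 1.24). By its brightest probe Wnt4 alone was called, in the higher direction, beside 0.551% of all genes. Counting any kept probe, 2 genes of this list were called. In wild-type cultures Wnt4 was not above background (6.04 to 6.87), and it read 8.77, 8.31, 8.08 and 7.75 in the nulls, at least 1.93-fold higher (adjusted p = 0.024, and 0.09 without wild-type replicate 1). Wnt3 overlapped, with null replicate 2 at 7.54 and the other nulls at 9.87 to 10.57.

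Of 16 measured genes of the BMP pathway and its targets, Bmp4, Msx1, Tbx3 and Tbx2 were called higher, and Smad5, a BMP-activated Smad, lower (median of the list -0.06). The shares over all genes were 0.551% called higher and 0.898% called lower. Tbx3, a T-box repressor, read 9.59, 9.40, 10.17 and 10.03 in wild-type and 12.46, 11.87, 12.47 and 12.67 in null cultures (difference 2.57, SE 0.24, adjusted p = 0.00356), and all of its 4 probes were called. Msx1 read 8.57, 10.12, 9.57 and 9.29 against 11.79, 12.53, 11.91 and 11.95 (adjusted p = 0.013). Tbx2 was not above background in any wild-type culture and was at least 2.41-fold higher in the nulls (adjusted p = 0.046, and 0.153 without wild-type replicate 4). The common BMP targets Id1, Id2 and Id3 had differences of -0.45, -0.10 and 0.22, and the receptors Bmpr1a and Bmpr2 of -0.03 and -0.21, none called. The fall of Smad5 was small (-0.69, SE 0.12, adjusted p = 0.0372), and its other probe was at 0.01.

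Of 10 lateral plate and cardiac mesoderm factors 8 had a positive difference, with a median of 1.63 for the list. Of the 10, 4 were called higher, beside 0.551% of all genes, and none lower. The called members, Bmp4, Foxf1, Msx1 and Tbx3, include 3 that the BMP list also holds. Myl7 and Isl1, genes of heart muscle and its progenitors, had negative differences of -1.93 and -1.59 that did not pass. Of the heart muscle genes named above that are outside this list, Myl3 was called lower (-3.44) and Alpk3 higher (2.69). Of 11 primitive streak and nascent mesoderm genes none was called (median 0.88), and Mesp1 was at 0.88 and Mixl1 at 1.70. Null replicate 2 was the lowest null for 10 of these 11. Among 7 blood and endothelial genes Lmo2 was called higher (median 0.96).

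Calls in the mesenchymal list were all higher and calls in the epithelial list all lower, but they were a minority of each list. Called genes outside these chosen lists are not covered by this. Of 14 mesenchymal and EMT (epithelial-to-mesenchymal transition) genes 13 had a positive difference, and 10 had nonoverlapping groups (3.5% of all genes were higher in this way). Of the 14, 4 were called higher, beside 0.551% of all genes, and the list median was 1.72. Cd44 read 7.56, 7.70, 8.77 and 7.59 in wild-type and 10.58, 12.50, 11.41 and 10.39 in null cultures. Cdh11, a cadherin of mesenchyme, stayed between 6.54 and 6.96 in wild-type cultures, not above background, and read 9.34, 8.31, 9.11 and 9.18 in the nulls, at least 3.26-fold higher (adjusted p = 0.00746, both probes called). The matrix protein fibronectin, Fn1, read 10.83, 11.97, 11.80 and 11.27 against 13.24, 12.72, 12.69 and 13.03 (difference 1.45, SE 0.27, adjusted p = 0.046), and Vim, the intermediate filament vimentin, rose by 1.54 (SE 0.29, adjusted p = 0.0495). These last 2 reached 0.155 without wild-type replicate 4 and 0.166 without wild-type replicate 1. The repressors of the epithelial state Snai1 (1.82), Zeb1 (2.12) and Zeb2 (1.86) and the bHLH factor Twist2 (3.77) had nonoverlapping groups with adjusted p of 0.0507 to 0.0781. Null replicate 2 was the highest null for 10 of the 14, and its list mean was 11.57 against 10.07 to 10.57 in the other nulls and 8.72 to 9.16 in wild-type cultures.

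On the epithelial side 17 of 19 genes had a negative difference (median -0.97), 3 were called lower, beside 0.898% of all genes, and none higher. Cldn3, a tight junction claudin, read 9.12, 8.16, 8.83 and 9.07 in wild-type and 6.83, 6.27, 7.16 and 6.35 in null cultures, all of these below background, and was at least 2.91-fold lower (adjusted p = 0.0166). Ovol2, a zinc finger repressor of mesenchymal genes, had a difference of -1.75 (SE 0.33, adjusted p = 0.0491), and Spint1, an inhibitor of epithelial serine proteases, one of -1.56 (SE 0.28, adjusted p = 0.0458). Only 1 of the 2 kept probes of Spint1 was called. With 1 array left out the adjusted p reached 0.076 for Cldn3 and 0.16 for Ovol2 without wild-type replicate 4, and 0.138 for Spint1 without wild-type replicate 1. E-cadherin, Cdh1, had a difference of -1.16 and did not pass, and the keratins Krt8 and Krt18 were at -0.37 and -0.57. Wild-type replicate 2 was the lowest wild-type culture for 16 of the 19, with a list mean of 9.89 against 10.66 to 10.83 in the other 3 and 9.13 to 9.92 in the nulls. The list means of the 2 groups therefore overlapped in this culture. Shroom3, which drives apical constriction, fell by 1.54 with both probes called (SE 0.23, adjusted p = 0.0225, and 0.0918 without wild-type replicate 4) and was the 1 call among 10 genes of apical constriction and planar polarity.

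**Figure D3:**
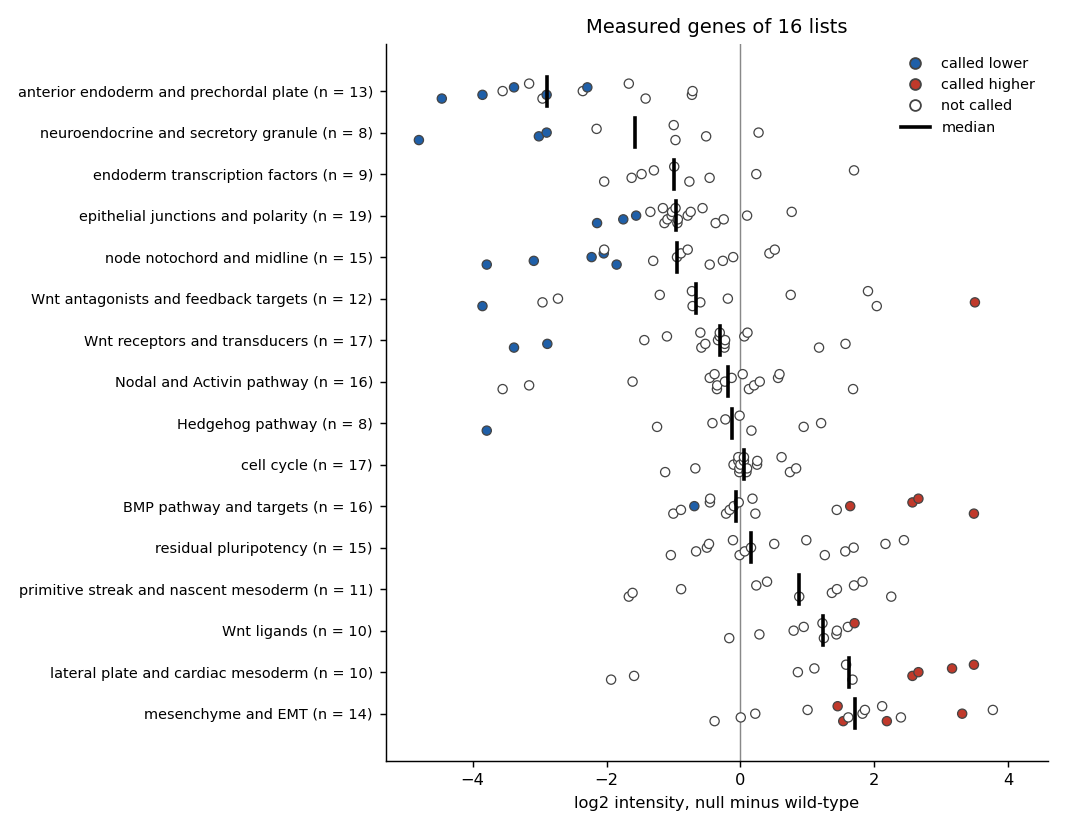
Each point is a measured gene of the list named at left, at its log2 difference between null and wild-type means on the x axis, blue where called lower, red where called higher and open where not called, with a black bar at the list median. Among the 16 lists drawn, medians run from -2.89 for anterior endoderm and prechordal plate to 1.72 for mesenchyme and EMT, while cell cycle (0.05) and residual pluripotency (0.16) lie near 0.

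Over all genes 0.898% were called lower and 0.551% higher, so a list of 7 to 17 genes can hold no call without differing from other genes. Several further lists held no call in either direction. These were the 16 Nodal and Activin pathway genes (median -0.18), 15 genes of residual pluripotency (0.16), 11 of visceral and parietal endoderm (0.48), 7 of trophoblast (0.27), 11 of the FGF (0.04) and 7 of the Notch pathway (-0.11), 17 of the cell cycle (0.05), 16 of glycolysis and hypoxia (-0.03) and 14 of the stress response (-0.15). Of the Nodal and Activin genes 9 had a negative and 7 a positive difference. For 4 of the 16 all nulls lay below all wild-type cultures, beside 6.04% of all genes, and the largest fall was -3.55 (Cer1). No call was made either in 2 short lists with medians farther from 0, Hoxc6 and Cdx2 (1.97) and the interferon-induced transmembrane genes Ifitm1, Ifitm2 and Ifitm3 (1.30, all positive). Pou5f1 and Nanog had differences of -0.01 and 0.06, and the glycolytic enzyme Gapdh one of 0.05. The spread within a genotype was large for some of these. The genes of residual pluripotency averaged 9.37 to 11.22 over wild-type cultures and 10.2 to 11.76 over nulls, with null replicate 3 the highest. Among 7 retinoic acid genes Aldh1a3 was the single call, whereas the receptor Rarb (-2.92) and the degrading enzyme Cyp26a1 (-1.65) were lower in every null without passing. Of 15 imprinted genes Mest, a paternally expressed hydrolase-fold protein, rose by 1.31 (SE 0.20, adjusted p = 0.0255) by its brightest probe, while its other probes had adjusted p of 0.0592 and 0.142, and without wild-type replicate 4 its own was 0.1. Grb10, an imprinted adaptor of insulin signaling on chromosome 11, was not called but split the nulls. It read 15.02, 13.63, 15.08 and 14.79 in wild-type replicates 1 to 4 and 13.17, 14.49, 8.1 and 8.59 in the nulls, so that null replicates 3 and 4, those with Eif2s3y at background, were far below all others (difference -3.54, SE 1.39, adjusted p = 0.288). Of the lists not yet named, 4 held 1 call each, beside 0.898% of all genes called lower and 0.551% called higher. These were Col2a1 among 14 genes of matrix and basement membrane, Sema6d among 17 of guidance cues, Irx3 among 9 of neural and other ectoderm and, in the opposite direction, Lmo2 among 10 genes of Lhx1 and its partners. Of 10 genes of the chemokine axis and endoderm surface Parm1, a mucin-like protein, fell by 1.94 and Kitl, the ligand of the Kit receptor, was higher by 1.19 (adjusted p = 0.0217 and 0.0477).

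**Figure D4:**
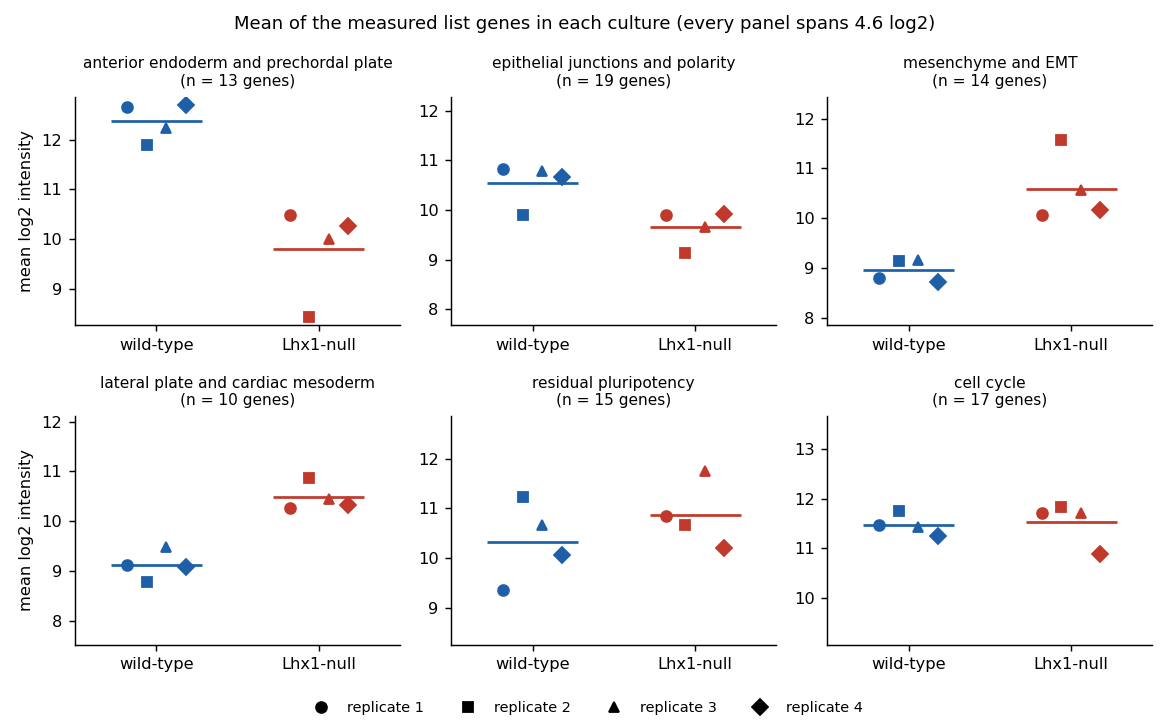
Mean log2 intensity of the measured genes of 6 lists in each culture, wild-type in blue and null in red, with marker shape giving the replicate and a line at the group mean. The anterior endoderm list separates the genotypes (11.9 to 12.7 against 8.43 to 10.49), as do the mesenchyme and the lateral plate lists in the opposite direction, whereas the means of the epithelial, pluripotency and cell cycle lists overlap between genotypes.

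Most called genes belonged to none of the lists, 86 of 121, with 55 lower and 31 higher. The following were picked from these after their values were seen. The Iroquois homeobox genes Irx5 and Irx3, neighbors on chromosome 8, fell together. Irx5 read 10.28, 9.50, 9.85 and 10.14 in wild-type and 7.74, 7.24, 7.12 and 7.60 in null cultures (difference -2.52, SE 0.22, adjusted p = 0.00307), and Irx3, which is in the neural list, 13.50, 12.64, 12.74 and 12.71 against 11.46, 11.86, 11.45 and 10.76 (difference -1.51, SE 0.28, adjusted p = 0.046, and 0.125 without wild-type replicate 4). A receptor and its ligand moved in opposite directions. Mertk, a receptor tyrosine kinase, fell to below background in all nulls, at least 3.80-fold (adjusted p = 0.0217), while its ligand Gas6 read 8.69, 9.53, 9.74 and 8.53 in wild-type and 11.25, 11.91, 11.65 and 10.92 in null cultures (difference 2.31, SE 0.33, adjusted p = 0.0215).

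Other falls outside the lists were those of Ffar4, a fatty acid receptor (at least 4.15-fold lower, adjusted p = 0.02), Eras, a Ras protein of ES cells (-2.80, SE 0.46, adjusted p = 0.0288), and Fgfbp1, a carrier that releases FGFs from the matrix (-2.07, SE 0.34, adjusted p = 0.0288). Among the rises were the secreted factors Reln, Vegfc and Igfbp4. Reln, the matrix glycoprotein reelin, read 9.65, 9.50, 9.86 and 9.79 against 11.44, 11.50, 11.13 and 11.50 (difference 1.69, SE 0.15, adjusted p = 0.00307). Vegfc, a growth factor of lymphatic endothelium, rose by 2.52 (SE 0.44, adjusted p = 0.0383) and Igfbp4, which binds insulin-like growth factors, by 2.47 (SE 0.34, adjusted p = 0.02, both probes called). The lowest adjusted p of all was that of a probe without a gene symbol, ILMN_1244976, at 6.31, 6.06, 6.03 and 5.59 in wild-type and 9.54, 9.56, 9.9971 and 9.57 in null cultures (at least 5.23-fold higher, adjusted p = 0.000359). In all, 21 called probes carry no symbol, 13 lower and 8 higher.

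Calls were spread over the genome, but 3 chromosomes were shifted in several cultures. Chromosome 11, which carries Lhx1, had a median difference of -0.13 over its 721 genes, while the other autosomes and X ranged from -0.065 to 0.0668. The shift was not shared by all cultures of a genotype. Relative to the mean of the 8 arrays and to the median of all genes, the median gene of chromosome 11 deviated by 0.144, -0.188, 0.111 and 0.18 in wild-type replicates 1 to 4 and by -0.107, -0.0473, -0.248 and 0.145 in null replicates 1 to 4. Wild-type replicate 2 was thus on the side of most nulls and null replicate 4 on the side of most wild-type cultures. Chromosome 8 stood at 0.261 in null replicate 3 and 0.173 in wild-type replicate 1, and at -0.185 to -0.146 in wild-type replicate 3 and null replicates 1 and 4. On chromosome 6 null replicate 2 was at 0.164 and null replicate 4 at -0.176. No other autosome, nor X, deviated by more than 0.0994 in any culture, and Y was represented by Eif2s3y alone.

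Chromosome 11 held 4 lower and 4 higher calls, 1.11% of its genes, beside 1.45% of all genes, and its share of calls was thus not above that of all genes. Within 50 protein-coding genes on either side of Lhx1, 41 were measured, with a median difference of -0.24, and 2 were called, Tbx2 higher and Gdpd1, a phosphodiesterase, lower (-2.24, SE 0.40, adjusted p = 0.0389). Chromosome 5 held the largest share of calls, 17 of 564 genes (3.01%), among them Shh, Nptx2, Cldn3, Shroom3, Msx1, Tbx3 and Reln. Copy number was not measured, and the part of these shifts in the calls was not tested.

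**Figure D5:**
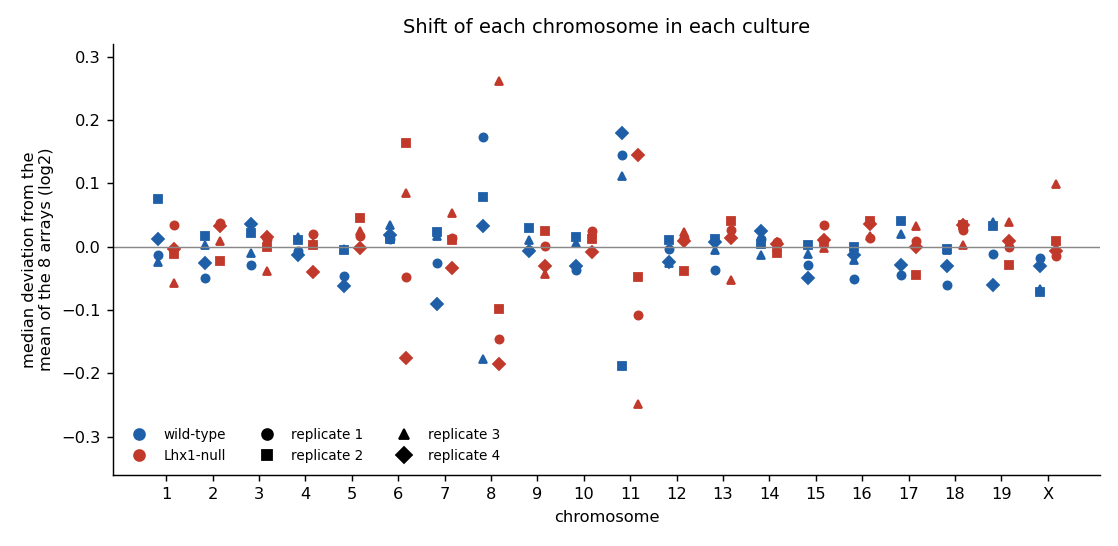
For each chromosome, the median over its genes of the deviation from the mean of the 8 arrays, in log2 units, less the same median over all genes, with wild-type cultures in blue and null cultures in red and marker shape giving the replicate. Chromosomes 6, 8 and 11 spread from -0.248 to 0.261 between cultures, and both of these extremes are in null replicate 3 (chromosomes 11 and 8). Every other autosome and X stay within 0.0994 of 0 (Y, with 1 gene, is not drawn).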

How the data were processed

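RNA of 8 day 6 cultures, 4 of each genotype, from ES cell lines that the paper describes as independent, had been hybridized to Illumina Mouse WG-6 v2 BeadChips. The authors exported non-normalized probe intensities from GenomeStudio (version not given in the sources used here), and these deposited intensities ran from 126.6 to 43090 on the 8 arrays. The authors deposited beside each a detection p-value, the rank of the probe against negative controls, and rank invariant intensities, which are each array's intensities rescaled along a straight line. Their differential scores from the Illumina custom error model are not used here, and limma was run in its place.

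In limma 3.58.1 (R 4.3.3), neqc estimated the background through the detection p-values, and after an offset of 16 the 8 arrays were quantile normalized and put on the log2 scale. The filter required detection (p under 0.01) by 4 or more of the 8 arrays, and lmFit and eBayes compared genotypes with Benjamini-Hochberg adjustment over all 14321. The steps were tested on simulated data. Platform annotation gave 34885 probes 1 symbol, 18 several and 10378 none, and 34807 were matched by Entrez ID to the reference table. Of the 14321 kept, 12519 had 1 symbol. A gene was represented by its kept probe with the highest mean. Where no array of a group was above background (detection p under 0.01), the fold is a bound, the mean of the bright group over the higher, on each array, of the lowest signal among detected probes and the probe's own. The number of arrays limits the precision, and p-values measure the spread between these cultures, taken as independent lines. Replicate numbers are those of the titles, which do not pair the genotypes.

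Named were Lhx1, the 12 largest rises and falls among called genes with nonoverlapping groups, up to 4 called members of each of 35 lists (the 2 brightest if none), and the genes the study names. The members and lists were chosen with earlier results of these data known, and other genes with values were picked after these were seen. Alternatives changed the background correction, offset, normalization, filter, unit of test, replicate block, array weights, covariate, variance model and arrays. The day 5 arrays were left out.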

Additional observations from a re-analysis of the deposited data

Results flagged for a closer look

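A sample whose gap to its nearest neighbor exceeded Dixon's critical value was found in 19 of 174 groups of 4 (10.9%), where chance flags about 1 in 20. Null replicate 2 was the sample in 9 of them. It was low for the organizer and Nodal pathway genes Lefty1 (8.6784, others 12.50 to 12.78), Lefty2 (9.3478), Gsc (8.7234) and Fgf8 (8.4152), and for Dnmt3b (13.5147), Hes1 (11.1784), Tcf7l2 (9.298) and Aldh1a3 (8.5229). It was high for Hoxc6 (11.2518), a posterior homeobox gene. Wild-type replicate 2 was low for Tph1 (9.1229), Col2a1 (9.2843), Tcf7l2 (10.7093) and Pdpn (12.4211). The other values apart were Irx3 in wild-type replicate 1 (13.4958, high), Cd44 in wild-type replicate 3 (8.7701, high), Hoxc6 in wild-type replicate 4 (6.9032, low), Gapdh and Dnajb1 in null replicate 3 (14.5202 and 13.3812, high) and Ccng1 in null replicate 4 (13.9369, high).

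Embryonic globins lay outside the comparison because their probes were detected on too few arrays. In null replicate 2 Hbb-bh1 read 14.9517, against 5.39 to 9.53 in wild-type cultures, and Hba-x 14.6844, against 5.55 to 8.79.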

How the results depend on the processing

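Against 182 calls (105 lower, 77 higher) as reported, 264 (161 and 103) were made without background correction, sharing 172 of the 182, and 257 (163 and 94) with median scaling, sharing 136. Totals were 68 (36 lower, 32 higher) with no filter on dim probes, 89 (50 and 39) with detection on all 8 arrays, and 834 (505 and 329) with array weights. Without null replicates 3 and 4 together 21 (14 and 7) were called, and 12 (4 and 8) with Eif2s3y as a covariate. Of the genes in lists, 20 were called lower and 15 higher, against 5 and 5 with no filter, 12 and 9 with detection on all 8 arrays, 39 and 33 with array weights, 2 and 0 without null replicates 3 and 4, and 1 and 0 with the covariate. With 1 array left out, between 30 and 451 probes were called, 9 to 259 lower and 18 to 192 higher, and 3 to 30 listed genes lower and 4 to 30 higher. With the replicate number as a block 257 probes were called (157 lower, 100 higher), 126 of them shared with the 182. The numbers share no stated source, and deviations of same-numbered cultures correlated at 0.046, -0.041, 0.24 and 0.48, with 2 of 4 correlating best with their own number. The block ended 9 of the 44 named calls, including those of Bmp4, Trh and Fn1. None of the 44 named genes that were called changed sign under any setting, while 12 named genes that were not called did, and Lhx1 was not called under any of them. The cause of these changes was not tested.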
